A study of Moricandia suffruticosa and Brassica napus with 23 samples.

Results

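The genes for small-subunit ribosomal proteins of oilseed rape, Brassica napus, were followed in leaf RNA after drought, after heat and without stress. A gene was taken as a member when the deposited table described its best Arabidopsis match as "Ribosomal protein S" with a number, and when it reached 1 FPKM (a level corrected for coding length and for the depth of the library) in at least 3 of the 9 libraries. The rule found 326 members among the 101040 genes of the table, 44260 of which met the same limit on values and were tested. A further 123 genes had such a description but lower values, and 71 of those were listed at 0 in all 9 libraries.

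The drought group had received no water for 3 days, the heat group had spent 3 h at 40 °C, and the control group had neither treatment. All of these plants were labelled 29005 and were 35 days old, raised in soil at 25 °C, 60% humidity and a light period of 16 h. Polyadenylated RNA of leaves was sequenced in 3 libraries per group, and every mean and SD below has n = 3. The labels do not say that the libraries came from separate plants, and the treatment note speaks of one replicate being drought treated. The p-values therefore measure only the spread between these libraries. Another 14 samples of the series, of Moricandia suffruticosa, were not analysed here.

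A ribosome reads messenger RNA with its small subunit and joins amino acids with its large one. Plant cells make cytosolic, plastid and mitochondrial ribosomes. The nuclear genome encodes all proteins of the first kind and most of the other two, and the copies of a ribosomal protein gene usually specify nearly the same protein. Small-subunit proteins line the path of the messenger RNA or hold the ribosomal RNA in its fold, and leaf cells need many ribosomes of the cytosol and of the plastid.

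Checked against their best Arabidopsis loci, 297 of the 326 members were small-subunit ribosomal proteins and 29 were not. The cytosolic small subunit accounted for 238 members at 39 loci of 25 protein families. The RPS15a loci AT2G19720 and AT4G29430 were counted in this class, and where their proteins act was not tested. Nuclear genes of the plastid small subunit gave 30 members at 7 loci, and 27 members at 11 loci were of mitochondrial or another organelle type. The other 2 small-subunit members best matched plastid-genome loci, RPS7 and RPS12. The 29 exceptions carry a related fold name in their description. They include 11 copies of LOS1, elongation factor 2, which moves the ribosome along the messenger RNA, and 6 copies of MEE5, a GTPase of the spliceosome. These 29 were kept in all counts because the rule chose them, and counts without them are given where they matter.

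The members formed a family of short, conserved and well expressed genes. Their median protein length was 159 residues, against 356 over all tested genes with a length, and their median identity to the Arabidopsis protein was 95.6%, against 84.3%. The median of the mean level over the 9 libraries was 20.2 FPKM for members and 5.34 FPKM for all genes tested. The level was part of the rule, so that difference is a description. Cytosolic members had a median of 22.1 FPKM and organelle members one of 11.7 FPKM. A locus had a median of 4 member copies and at most 13, with 170 members on the A subgenome and 156 on the C subgenome. Reads of near-identical copies can be assigned to either, which makes values of single copies less certain than sums over a locus.

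At the edge of the rule, the lowest members had mean levels between 0.620 FPKM (BnaC01g00260D, RPS25) and 0.986 FPKM (BnaC07g24350D, RPS21). The highest genes left out averaged 0.642 FPKM (BnaA10g30340D), 0.713 FPKM (BnaA09g35790D) and 0.764 FPKM (BnaC07g09710D). Of the members, 289 reached 1 FPKM in all 9 libraries. Heat libraries alone carried 4 members past the limit (BnaA02g31260D, BnaC01g00260D, BnaC08g45180D and BnaCnng03310D), which had to be higher there, and no member passed through drought or control libraries alone.

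The libraries held between 12173804 and 12934922 reads assigned to genes, and 1 read on 1 kb of coding sequence was worth 0.0773 to 0.0821 FPKM. Marker genes fitted the leaf label. The 22 tested leaf markers summed to between 26032 and 26964 FPKM in drought libraries, between 28696 and 29555 in heat libraries, and between 35105 and 35660 in control libraries. The 5 markers of dividing cells summed to between 11.4 and 14.3 FPKM in drought, between 16.1 and 20.3 in heat, and between 11.7 and 16.9 in control libraries. The 3 root marker genes summed to 1.86 to 4.15 FPKM in drought, 2.49 to 3.24 in heat and 5.36 to 7.01 in control libraries. No flower or seed marker reached the limit for testing. The part of these shifts in the members' changes was not tested, and in whole leaves fewer cells of a type and less RNA per cell cannot be told apart.

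Summed over all 238 cytosolic members, transcript levels were 5552.5, 5586 and 6282 FPKM in the drought libraries, 8861, 8569 and 8814 FPKM in the heat libraries, and 6349, 6250.5 and 6243 FPKM in the control libraries. The heat libraries stood above all others, while the third drought library lay inside the control range and the other two below it. The mean in heat was 1.39 times that of controls, and the mean in drought was 0.925 times that of controls. The 30 plastid members behaved differently, with a sum of 1109, 1071 and 1155 FPKM in drought, 1541, 1522.5 and 1577 FPKM in heat, and 1583, 1519 and 1534 FPKM in controls. Here drought libraries lay below all controls and the heat and control libraries overlapped. The 27 members of mitochondrial or another organelle type summed to 181 ± 9.26 FPKM in drought, 332 ± 5.99 FPKM in heat and 211 ± 7.54 FPKM in controls (SD). Their heat libraries were again the highest.

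**Figure D1:**
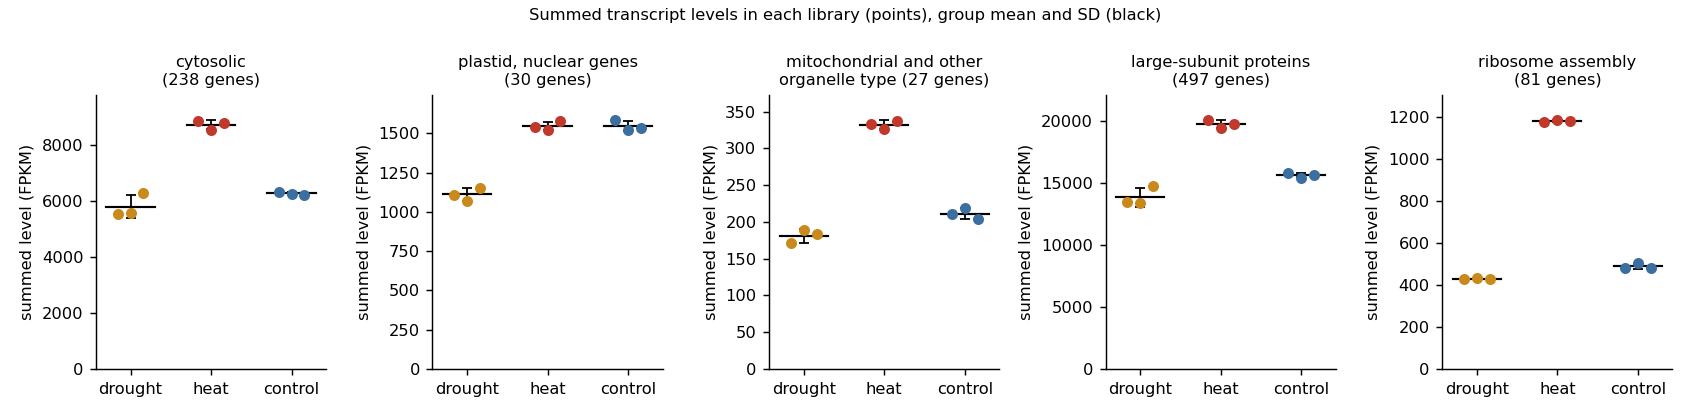
Summed transcript level in FPKM (vertical axes, from 0) in each library for 3 classes of members and for 2 lists set beside them, with drought, heat and control along the horizontal axes. Points are libraries, black bars are the group mean and SD. Cytosolic members average 8748 FPKM in heat and 6281 FPKM in controls, plastid members 1112 FPKM in drought and 1545 FPKM in controls.

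Drought was set against control first, to ask how leaf messenger RNA of the small subunit differed after 3 days without water. A gene was called when limma, fitted across all 44260 genes, gave a Benjamini-Hochberg adjusted p under 0.05 and a change of at least 1 on the scale of log2(FPKM + 1). Of the 326 members, 3 rose and 4 fell, or 2.15%. Over all genes tested 12.0% were called, 5.12% higher and 6.87% lower. Small differences were more common and mostly downward: with no limit on size, 18 members were higher and 108 lower at an adjusted p under 0.05. That is 126 of 326, against 46.0% of all genes, 19.6% higher and 26.5% lower. The median change of members was -0.18, against -0.06 over all genes, on the log2 scale.

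The third drought library stood apart from the other two in these genes. In it the members lay a median of 0.16 and 0.12 log2 units above the first and second drought libraries, while the median over all genes differed by less than 0.01. Without that library the members' median in drought was -0.24 and 10 members were called, 3 higher and 7 lower, against 12.1% of all genes. With TMM factors, which rescale each library by a trimmed mean, the median was -0.09 and 3 members rose and 1 fell. Counted with no limit on size, 33 members were then higher and 86 lower. Over all genes 12.1% were called with these factors, 2628 higher and 2709 lower, and 46.4% passed with no limit on size.

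Plastid small-subunit genes were mostly lower in drought. Of the 30 members, 21 were lower at an adjusted p under 0.05 in limma and none was higher, with a median of -0.45. With the copies of each locus summed, all 7 plastid loci were lower at that threshold, with a median of -0.43, and none reached a change of 1. In such sums 58.4% of all 16186 loci tested passed that threshold, 25.3% higher and 33.1% lower. Leaf markers shifted in the same comparison, with 10 of 22 called lower in drought and 0 higher, against 6.87% of all genes lower. The part of that shift in the plastid genes was not tested.

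The largest plastid change was in PRPS5, whose bacterial counterpart helps to keep decoding accurate. Its copy BnaA04g19830D had 50.7, 53.9 and 53.6 FPKM in drought, 112, 118 and 113 FPKM in heat, and 118, 107 and 109 FPKM in controls. Drought libraries were apart from both other groups, which overlapped each other. The gene fell in drought by 1.06 ± 0.05 (SE) on the log2 scale (limma adjusted p = 1.51e-08), and with TMM factors the change was -0.97, short of the limit. The C copy, BnaC04g44220D, averaged 67.8 FPKM in drought, 90.6 FPKM in heat and 113 FPKM in controls, a drought change of -0.73. Summed over the locus, PRPS5 (AT2G33800) stood at 118, 123 and 120 FPKM in drought, 200.5, 204 and 210.5 FPKM in heat, and 239, 218 and 217 FPKM in controls. The difference was -0.89 ± 0.04 in drought (limma adjusted p = 1.63e-09) and -0.13 ± 0.04 in heat (adjusted p = 0.0155).

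PRPS10 and PRPS17, a head and a body protein of the plastid small subunit, followed. PRPS10 (AT3G13120, 8 members) summed to 117 FPKM in drought, 135 FPKM in heat and 188 FPKM in controls. It differed from control by -0.68 ± 0.06 in drought and -0.47 ± 0.06 in heat, and its libraries did not overlap with controls in either. PRPS17 (AT1G79850, 4 members) summed to 187 FPKM in drought, 290 FPKM in heat and 296 FPKM in controls, a difference of -0.66 ± 0.05 in drought and -0.03 ± 0.05 in heat. PRPS1, which helps messenger RNA bind the plastid ribosome, was the highest organelle member. Its copy BnaC09g02870D had 92.1, 90.5 and 86.8 FPKM in drought, 96.6, 92.9 and 93.4 FPKM in heat, and 121, 120 and 125 FPKM in controls. Both stress groups lay below all controls, with changes of -0.44 in drought and -0.37 in heat, neither reaching the limit of 1. BnaC09g20530D, a PRPS17 copy and the next in level, averaged 82.0 FPKM in drought, 102 FPKM in heat and 108 FPKM in controls. A mitochondrial locus also stood among the 6 with the largest drought differences: MRPS10 (AT3G22300, 4 members) summed to 16.9 FPKM in drought, 20.98 FPKM in heat and 27.7 FPKM in controls. Another of the 6, AT3G12915, is an elongation factor 2 homologue whose difference of -1.05 ± 0.43 missed the p threshold (limma adjusted p = 0.0514).

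Few cytosolic members were called in drought, 3 higher and 3 lower of 238. Of the 3 that fell, RPS13, which contacts the large subunit, was the best supported. Its copy BnaA09g38730D had 8.83, 10.5 and 8.58 FPKM in drought, 19.3, 20.6 and 17.3 FPKM in heat, and 21.9, 25.8 and 22.2 FPKM in controls. All drought libraries were lower than all others, and the gene fell by 1.24 ± 0.10 (limma adjusted p = 1.60e-06). That RPS13 locus (AT4G00100, 9 members), summed with its genes below the limit on values, differed by -0.04 ± 0.06 in drought. The other 2 falls were in RPS26, which lies where messenger RNA leaves the subunit. BnaA03g19120D had 1.81, 2.60 and 5.34 FPKM in drought, 2.48, 3.52 and 3.30 FPKM in heat, and 6.49, 7.05 and 7.73 FPKM in controls. It lies in a stretch of chromosome A03, described below, whose tested genes had a median drought change of -0.25. The part of that shift in its fall was not tested. BnaC03g69780D had 0.209, 1.44 and 1.19 FPKM in drought, 2.75, 2.43 and 3.58 FPKM in heat, and 2.41, 4.57 and 1.80 FPKM in controls. Each fell by 1.01 in drought (limma adjusted p = 0.00561 and 0.0155). Neither call held with TMM factors or quantile normalization. Leaving out the first or second drought library or the third control library ended that of BnaA03g19120D, whose changes were then -0.76, -0.93 and -0.95. Leaving out the first drought library or the second control library ended that of BnaC03g69780D, at -0.70 and -0.73.

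The 3 members that rose in drought rose in heat as well. Both comparisons share the control libraries, so the pair of calls is not independent. RPS9, a protein of the messenger RNA entry channel, has 2 Arabidopsis loci, of which AT5G39850 had a single gene here. That gene, BnaA04g09660D, had 11.3, 10.996 and 11.8 FPKM in drought, 14.0, 10.0 and 14.9 FPKM in heat, and 2.51, 3.01 and 1.19 FPKM in controls. Both stress groups lay above all controls, with a rise of 1.98 ± 0.21 in drought (limma adjusted p = 1.29e-05) and of 2.14 ± 0.21 in heat (adjusted p = 3.56e-06). It was also the 1 locus of 67 called in drought when copies were summed, against 12.4% of all loci. The other locus, AT5G15200, with 6 members, held most RPS9 transcript: 320 FPKM in drought, 399 FPKM in heat and 303 FPKM in controls. Another gene that rose in both stresses was BnaC02g21820D, a short RPS3 gene model of 93 residues, where most RPS3 members have 249. It was seen in 18 reads in drought, 22 reads in heat and 2 reads in controls. With so few control reads no control library reached 1 FPKM. The gene met the limit on values through stress libraries alone, and had to be higher there. The read ratio to control was 9.23 in drought (exact 95% interval 2.21 to 82.0) and 10.99 in heat (2.70 to 96.4). These intervals pool the libraries of a group and cover counting error only. With the direction fixed by the limit on values, they do not support a rise.

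Heat against control asked the same after 3 h at 40 °C, and here the members moved up. Of the 326, 38 rose and 9 fell. That is 14.4% called, against 25.6% of all genes, 14.4% higher and 11.2% lower. With no limit on size, 191 members were higher and 35 lower at an adjusted p under 0.05 in limma, against 67.7% of all genes, 40.1% higher and 27.6% lower. The median change was 0.38 for members and 0.16 for all genes. Without the 29 members that are not small-subunit proteins, 31 rose and 9 fell, with a median of 0.40. TMM factors brought the median of all genes in heat to 0.00 and that of members to 0.20, so that members lay 0.23 above all genes without these factors and 0.20 with them. With TMM factors 25 members rose and 14 fell, and with no limit on size 134 were higher and 53 lower. Over all genes 24.4% were then called, 4844 higher and 5977 lower, and 65.4% passed with no limit on size.

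The rise was small and widely shared among cytosolic proteins. Of the 238 cytosolic members, 144 were higher and 23 lower at an adjusted p under 0.05, with a median of 0.46, and 24 rose and 8 fell by the full rule. With TMM factors these counts with no limit on size were 107 and 33. When the copies of a locus were summed, 34 of 39 cytosolic loci were higher at that threshold, none was lower and 5 did not pass, with a median of 0.50. Over all 16186 loci 76.5% passed that threshold, 46.7% higher and 29.8% lower. The median over all loci was 0.19. Sums over loci were not refitted with TMM factors, so how these locus counts depend on the scaling was not tested. The plastid loci were split, 3 of 7 higher and 3 lower, and 7 of the 11 loci of mitochondrial or another organelle type were higher and 1 lower. Of the 3 higher plastid loci, PRPS13 at 0.11 lay below the median over all loci. PRPS21 at 0.22 lay just above it, and PRPS9 was at 0.40.

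**Figure D2:**
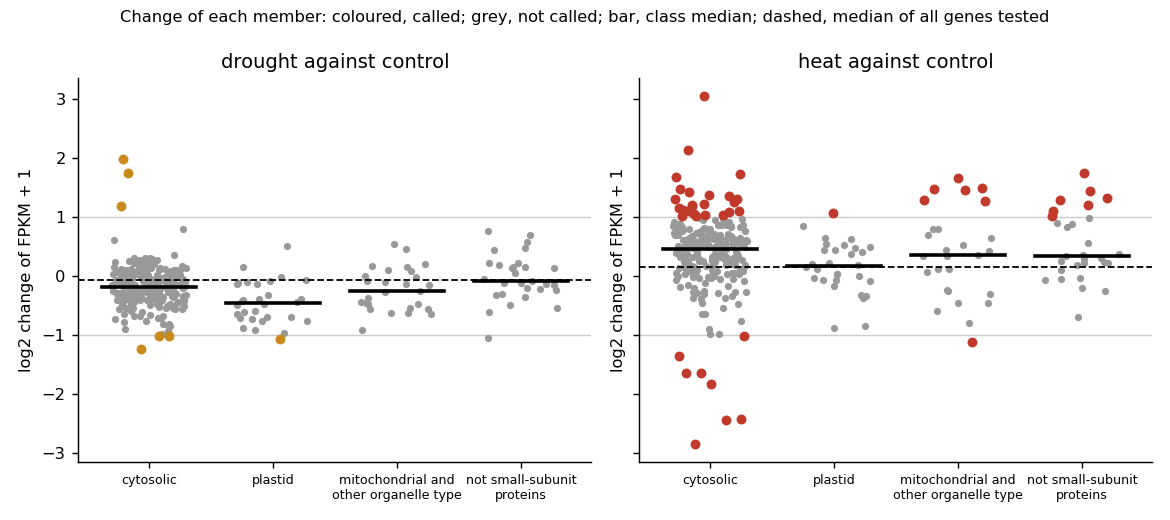
Change of each member on the scale of log2(FPKM + 1) (vertical axis) by class (horizontal axis), for drought against control on the left and heat against control on the right. Coloured points are members called, grey points are not called, solid bars are class medians and the dashed line is the median over all 44260 genes. In drought the plastid median is -0.45 and in heat the cytosolic median is 0.46.

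The most abundant members showed this small rise. RPS6, a protein that S6 kinase phosphorylates when growth is promoted, had the highest mean level of all members. Its copy BnaA03g02870D had 140, 139 and 148 FPKM in drought, 230, 215 and 210 FPKM in heat, and 144, 142 and 134 FPKM in controls. Heat libraries lay above all others and drought and control libraries overlapped, with a heat change of 0.64 ± 0.05 (limma adjusted p = 4.81e-07) that stayed under the limit of 1. RPS19, in the head of the subunit, came closer to that limit: BnaA05g34140D averaged 91.9 ± 3.38 FPKM in drought, 170 ± 10.9 FPKM in heat and 92.6 ± 3.46 FPKM in controls, a heat change of 0.87. RPS16 (BnaA03g07060D), RPS9 (BnaA03g05300D) and both LOS1 copies among the 8 highest members (BnaC03g76150D and BnaAnng33970D) had heat changes between 0.21 and 0.25. RPS2, at the messenger RNA entry, was the 1 gene called in heat among the 20 highest members. BnaC03g23520D had 85.3, 83.9 and 88.9 FPKM in drought, 163, 165 and 172 FPKM in heat, and 71.4, 72.1 and 71.2 FPKM in controls. The 3 groups did not overlap, and the gene rose in heat by 1.21 ± 0.04 (limma adjusted p = 6.20e-10).

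Among the 6 loci with the largest heat rises, 4 were outside the class counted here as cytosolic. Beside RPS9 (AT5G39850), the 6 were an S5 protein of organelle type (AT1G64880), an S16 protein of organelle type (AT5G56940), MEE5 (AT1G06220), a divergent form of RPS15a (AT2G19720) and MRPS9 (AT3G49080). The S5 locus summed to 9.41, 8.96 and 7.92 FPKM in drought, 40.0, 42.6 and 41.9 FPKM in heat, and 15.9, 12.6 and 14.2 FPKM in controls. It was higher in heat by 1.48 ± 0.09 and lower in drought by 0.64 ± 0.09, with no overlap of groups. Its 2 copies both rose in heat, BnaA02g20180D by 1.502 and BnaCnng23910D by 1.296. The S16 locus averaged 15.0 FPKM in drought, 51.4 FPKM in heat and 17.9 FPKM in controls. MRPS9 averaged 16.0 FPKM in drought, 50.3 FPKM in heat and 21.9 FPKM in controls. MEE5, the spliceosome GTPase, had 5 of its 6 copies called higher in heat, with BnaCnng69360D at 7.78, 8.57 and 7.94 FPKM in drought, 31.1, 29.5 and 31.0 FPKM in heat, and 7.80, 8.16 and 9.19 FPKM in controls. For the 67 loci together, 10 were called higher in heat and none lower, against 24.8% of all loci.

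**Figure D3:**
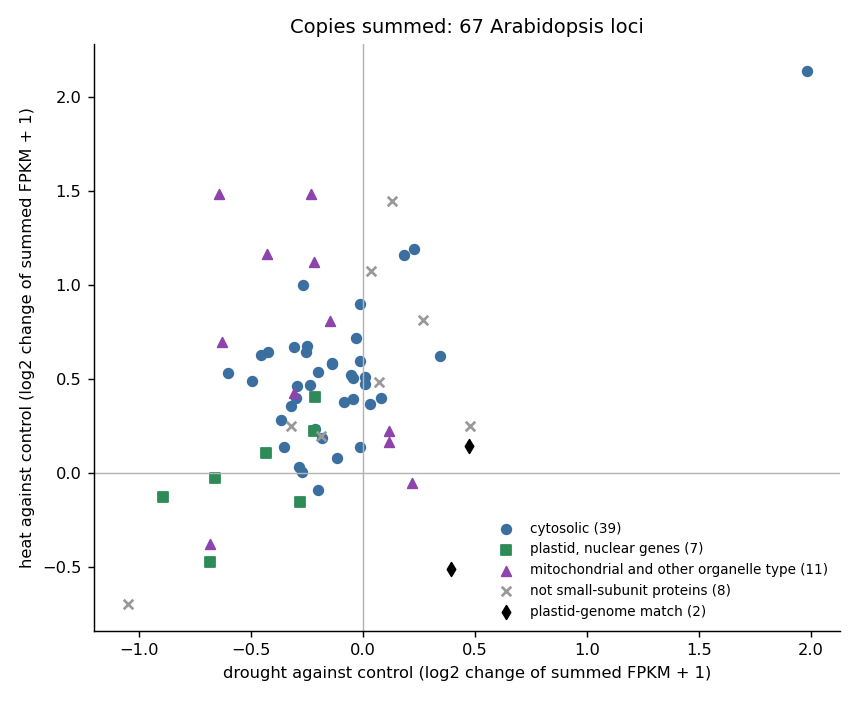
Change of each of the 67 Arabidopsis loci with the FPKM of its copies summed, as log2 change of summed FPKM + 1, for drought against control (horizontal axis) and heat against control (vertical axis). Marker shape and colour give the class, with the number of loci in the legend. The 7 plastid loci lie left of 0 in drought, and 38 of the 39 cytosolic loci lie above 0 in heat, with RPS9 (AT5G39850) at the upper right.

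At some loci the copies moved apart in heat. Of 57 loci with at least 2 members, 6 had copies called in both directions, or 10.5%, against 2.99% of 12722 other loci with at least 2 tested copies. The member loci had more copies, a median of 4 against 3, and the share was higher at loci with more copies. Among loci with 7 or more copies it was 3 of 16 member loci and 72 of 360 others, with 4 to 6 copies 2 of 25 member loci and 201 of 3848 others (5.22%), and with 2 or 3 copies 1 of 16 member loci and 108 of 8514 others (1.27%). In drought it was 0 of 57, against 0.731% of the others. The 6 loci with copies called both ways in heat were RPS20 (AT5G62300), RPS14 (AT3G11510), RPS4 (AT5G07090), RPS3 (AT5G35530), RPS30 (AT5G56670) and the S13 protein of organelle type (AT1G77750). The copy with the highest mean was another one than in controls at 15 of the 57 loci in heat and at 8 in drought.

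RPS20, in the head of the subunit, gave the largest fall. Its copy BnaA03g13080D had 41.5, 41.6 and 45.4 FPKM in drought, 8.31, 6.43 and 6.73 FPKM in heat, and 63.3, 54.1 and 55.8 FPKM in controls. In heat it fell by 2.85 ± 0.10 (limma adjusted p = 4.65e-10) with no overlap between groups. The copy BnaC03g15950D had 38.2, 37.3 and 43.3 FPKM in drought, 115, 111 and 113 FPKM in heat, and 39.6, 39.7 and 40.8 FPKM in controls. It rose in heat by 1.47 ± 0.06 (limma adjusted p = 2.53e-09), while its drought and control libraries overlapped. Both copies lie in stretches, of chromosomes A03 and C03, whose genes as a whole shifted in heat in the same direction, with medians of -1.02 and 0.76. The A copy made up 2.68% of the transcript of the 5 RPS20 members in heat and 20.3% in controls, and the C copy 42.3% in heat and 14.1% in controls. The locus (AT5G62300) as a whole averaged 248 FPKM in drought, 268 FPKM in heat and 285 FPKM in controls, a heat difference of -0.09 ± 0.04 (limma adjusted p = 0.0530).

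RPS4, of the subunit body, and RPS9 each had a single copy that fell in heat while the sum over its locus did not. The RPS4 copy BnaAnng31720D had 33.3, 35.1 and 37.0 FPKM in drought, 7.10, 6.81 and 9.19 FPKM in heat, and 44.9, 45.8 and 45.9 FPKM in controls, a fall in heat of 2.43 ± 0.10 (limma adjusted p = 1.93e-09). Another RPS4 copy of that locus, BnaAnng16450D, averaged 49.8 FPKM in drought, 98.4 FPKM in heat and 47.9 FPKM in controls, and rose by 1.02. The locus (AT5G07090, 6 members), summed with its genes below the limit on values, differed by 0.18 ± 0.05 in heat. The RPS9 copy BnaC02g05940D had 6.78, 5.05 and 7.25 FPKM in drought, 0.260, 0.134 and 0.132 FPKM in heat, and 5.17, 4.07 and 7.28 FPKM in controls. That is 4 reads in the 3 heat libraries together and 125 reads in the controls, a fall of 2.44 ± 0.18 on the scale with 1 FPKM added (limma adjusted p = 4.52e-07). The 5 other members at AT5G15200 had heat changes between 0.06 and 0.75, and none was called.

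RPS14, on the platform of the subunit, had 12 members, of which BnaA03g16530D fell by 1.65 and BnaC03g19950D rose by 1.11 in heat. The first had 6.58, 5.96 and 7.79 FPKM in drought, 3.85, 3.28 and 2.20 FPKM in heat, and 13.6, 11.5 and 10.2 FPKM in controls. The second had 5.01, 9.53 and 11.3 FPKM in drought, 19.4, 14.9 and 21.1 FPKM in heat, and 7.72, 8.84 and 7.36 FPKM in controls. Heat libraries were apart from controls in both genes, below them in the first and above them in the second. These 2 genes, and the RPS3 gene on A03 given next, lie in the same A03 and C03 stretches as the RPS20 copies. RPS3, a protein of the messenger RNA entry channel, had members at 2 loci. At AT2G31610 BnaA03g14550D fell to 16.2, 18.8 and 18.04 FPKM in heat, against 61.2, 51.6 and 59.6 FPKM in controls, a change of -1.65 ± 0.10 (limma adjusted p = 8.08e-08). At AT5G35530 BnaC04g42280D had 9.17, 2.02 and 4.59 FPKM in heat, against 14.6, 12.4 and 12.997 FPKM in controls. Its fall of 1.36 ± 0.32 rested in part on the second heat library, and without it the change was -0.92, short of the limit.

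Among the short RPS30 genes, which encode a small basic protein, BnaA03g10670D fell by 1.83 in heat while BnaA09g44000D rose by 1.68. The first had 0.889, 0.305 and 0 FPKM in heat, against 3.62, 4.19 and 3.61 FPKM in controls, or 4 reads against 38, and it lies in the A03 stretch. The second had 18.1, 12.5 and 15.9 FPKM in heat, against 4.51, 4.07 and 3.68 FPKM in controls. Of the 13 RPS30 members, 3 rose and 1 fell. RPS15a, which binds the central domain of the ribosomal RNA, had its largest rise in BnaC03g11550D, with 29.1, 29.9 and 34.4 FPKM in drought, 96.2, 82.6 and 94.7 FPKM in heat, and 26.5, 25.8 and 27.4 FPKM in controls. It rose in heat by 1.74 ± 0.08 (limma adjusted p = 5.89e-09) and lies in the C03 stretch. The S13 protein of organelle type had 2 members, whose mean levels changed places: BnaA02g36040D averaged 10.7 FPKM in heat and 24.3 FPKM in controls, and BnaC06g38290D averaged 48.4 FPKM in heat and 19.4 FPKM in controls. BnaC08g45180D, an S18 protein of organelle type that entered through heat libraries alone, had 3.14, 3.46 and 3.61 FPKM in heat, against 0.441, 0.656 and 0.110 FPKM in controls.

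**Figure D4:**
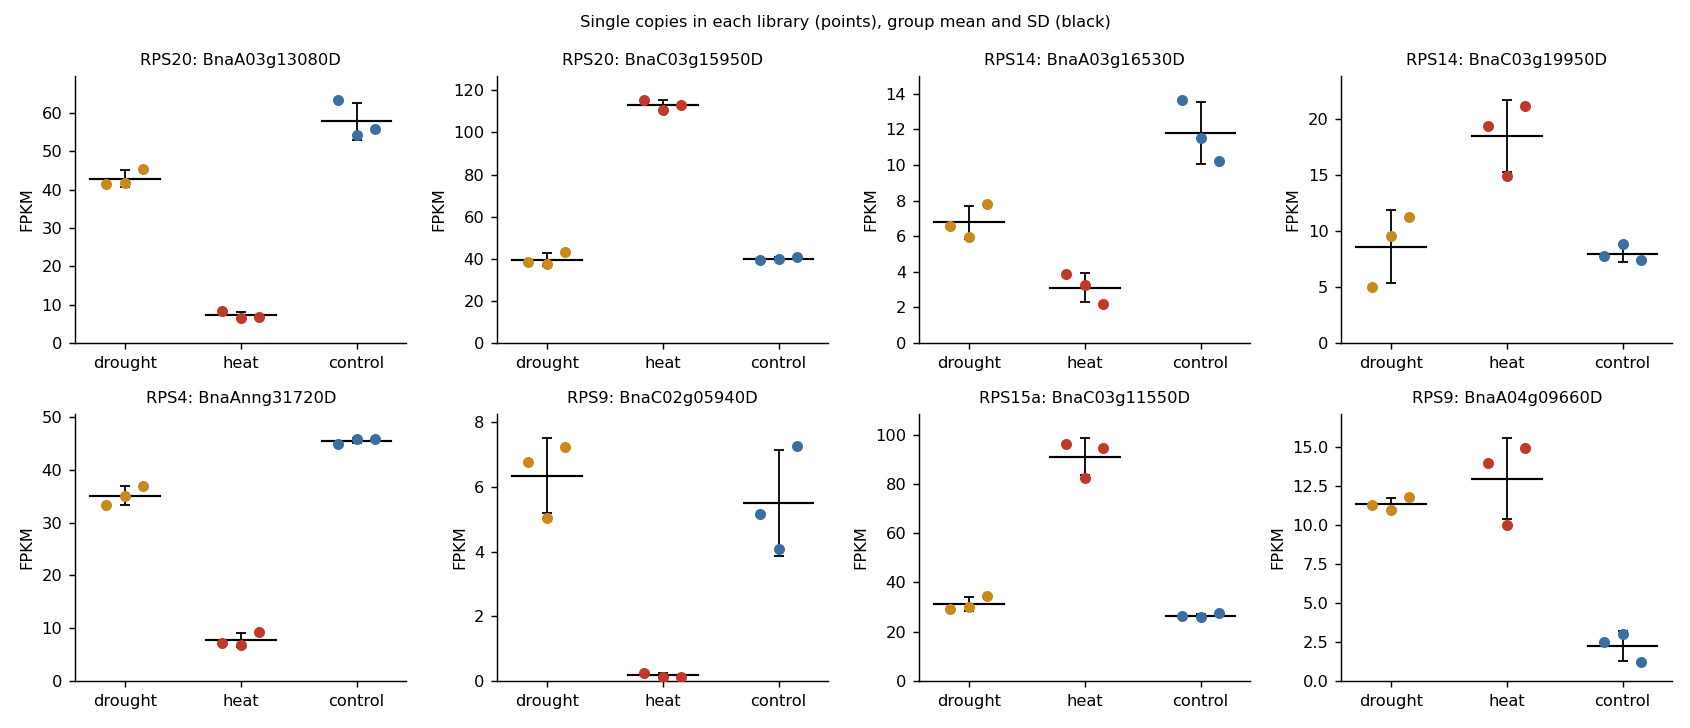
Level in FPKM (vertical axes, from 0) of 8 single copies in each library, with drought, heat and control along the horizontal axes. Points are libraries, black bars the group mean and SD. RPS20 on A03 averages 7.16 FPKM in heat and 57.7 FPKM in controls, its copy on C03 113 FPKM in heat and 40.0 FPKM in controls, and RPS15a on C03 91.2 FPKM in heat and 26.6 FPKM in controls.

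Position within the genome went with some of these opposite changes, as at RPS20 and RPS14, a pattern looked for after the values had been seen. Gene IDs carry a chromosome and a running number, which was taken as the order along the chromosome. On A03, 639 tested genes with numbers from 8000 up to 21000, whatever their function, had a median heat change of -1.02, and 50.7% of them were called lower. Their median difference from the control mean was -1.02, -1.03 and -1.04 in the 3 heat libraries, and -0.25, -0.28 and -0.25 in the 3 drought libraries. On C03, 628 genes numbered from 9000 up to 22000 had a median heat change of 0.76, with 36.9% called higher. Their medians were 0.73, 0.75 and 0.78 in the heat libraries, and 0.08, 0.08 and 0.09 in the drought libraries. In heat, 20 of 864 stretches of 1000 numbers with at least 20 tested genes had a median at or below -0.5. A median at or above 0.5 was found in 95, and in drought no stretch reached either limit. These limits, also used for neighbours below, were set from 0, while the heat median over all genes tested was 0.16. A shorter run on C02, numbered from 17000 up to 22000, had a heat median of 0.64 and held BnaC02g21820D.

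The A03 stretch held 9 members, 4 of them called lower in heat and none higher: RPS20 (BnaA03g13080D), RPS30 (BnaA03g10670D), RPS14 (BnaA03g16530D) and RPS3 (BnaA03g14550D). The C03 stretch held 5 members, of which RPS20 (BnaC03g15950D), RPS14 (BnaC03g19950D) and RPS15a (BnaC03g11550D) were called higher. Around BnaA03g13080D the 48 tested genes within 500 numbers had a heat median of -1.07 and a drought median of -0.09. For BnaC03g15950D the 48 neighbours had a heat median of 0.81 and a drought median of 0.09. Such neighbours could be counted for 284 members. Of the 8 called lower in heat, 4 had a neighbour median at or below -0.5, and of the 29 called higher, 9 had one at or above 0.5. Among the 247 not called, 20 had a neighbour median beyond 0.5 either way. All 3 heat libraries share these shifts, so a change of the member itself and that of its stretch cannot be told apart here. The number of gene copies in these stretches was not measured, so a difference in copies between the heat plants and the others cannot be told apart from a response to heat. Without the 33 members whose neighbours had moved by 0.5 or more, 29 rose and 5 fell in heat, with a median of 0.37. These counts still hold members whose neighbours could not be counted, such as BnaAnng31720D. Of the 251 members with a neighbour median within 0.5, 20 rose and 4 fell, against 14.4% higher and 11.2% lower over all genes.

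**Figure D5:**
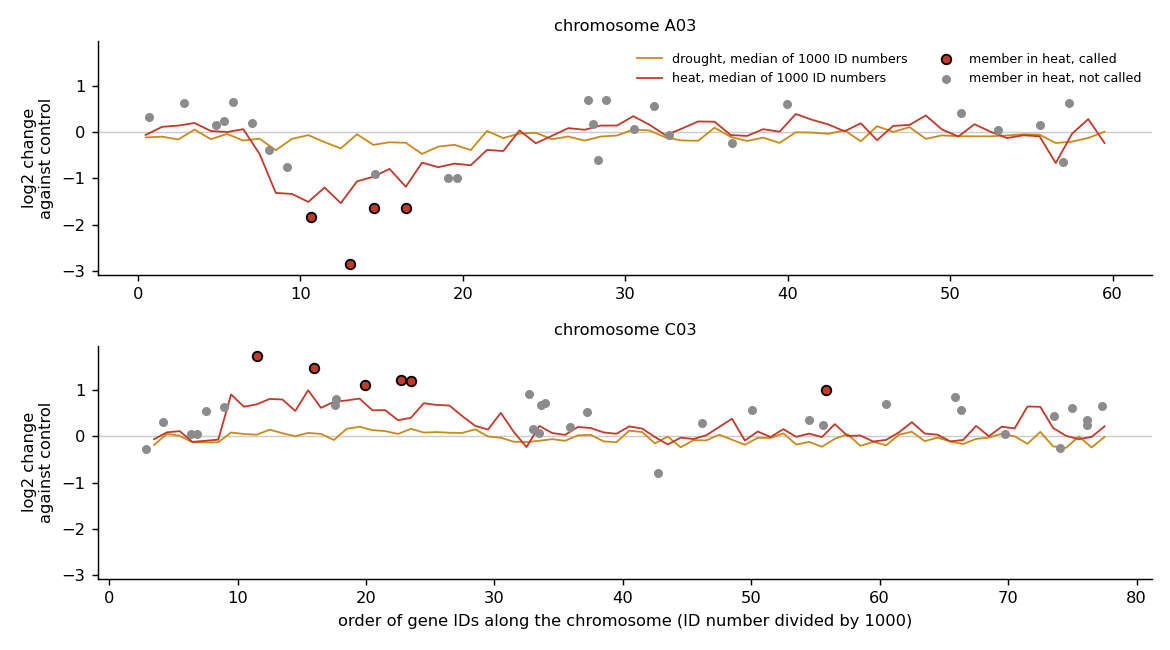
Log2 change against control (vertical axes) along chromosomes A03 (upper) and C03 (lower), ordered by the number in the gene ID, divided by 1000 (horizontal axes). Lines are medians of all tested genes per 1000 ID numbers in drought and in heat, large points are members called in heat and grey points members not called. On A03 the heat line runs below -0.5 between 8 and 21, where 4 members fell, and on C03 it runs above 0.5 between 9 and 22, where 3 members rose.

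Heat and drought leaves were also compared directly. Of the 326 members, 71 were higher and 8 lower in heat than in drought, or 24.2%, against 28.6% of all genes, 17.5% higher and 11.1% lower. With no limit on size 235 members were higher and 27 lower at an adjusted p under 0.05, against 69.6% of all genes, 42.9% higher and 26.7% lower. The median difference was 0.60 for members and 0.20 for all genes. With TMM factors 34 were higher and 11 lower, and the medians were 0.34 and -0.02. Over all genes 27.2% were then called, 5469 higher and 6549 lower. With copies summed, 11 of the 67 loci were called, against 28.2% of all loci. With no limit on size 58 loci were higher in heat and 3 lower at an adjusted p under 0.05, against 77.9% of all loci, 49.1% higher and 28.8% lower. All 7 plastid loci and 37 of the 39 cytosolic loci were among the 58. The median was 0.57 over the 67 loci and 0.23 over all loci, and these sums were not refitted with TMM factors.

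Other genes of the ribosome and its making were set beside the members. Large-subunit ribosomal proteins, chosen by the same kind of description, numbered 497. In drought 6 of them rose and 13 fell (3.82%, against 12.0% of all genes), with a median of -0.22. In heat 103 rose and 16 fell (23.9%, against 25.6% of all genes), with a median of 0.50. Among these, an L19e gene (BnaA09g51180D) had 143, 146 and 142 FPKM in heat, against 50.5, 49.7 and 54.0 FPKM in controls, while a plastid L12 gene (BnaCnng58960D) fell to 235, 247 and 235 FPKM in heat, against 513, 475 and 480 FPKM in controls. The 87 tested cytosolic small-subunit genes whose description the rule missed had 0 higher and 2 lower in drought (2.30%), with a median of -0.20. In heat 8 of the 87 were higher and 4 lower (13.8%), with a median of 0.48. Of these, RPS10 (BnaC03g15440D) had 64.4, 63.7 and 66.5 FPKM in heat, against 24.04, 22.6 and 22.7 FPKM in controls, with its number inside the C03 stretch.

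Ribosome assembly genes had the largest share of rises in heat among the lists set beside the members. Of 81 tested, 45 rose and 1 fell (56.8%, against 25.6% of all genes), with a median of 1.13. In drought 1 rose and 3 fell (4.94%, against 12.0%), with a median of -0.20. Nucleolin NUC1, which acts in the transcription and processing of ribosomal RNA, had 26.5, 27.3 and 24.5 FPKM in drought, 142, 136 and 137 FPKM in heat, and 32.6, 30.1 and 29.95 FPKM in controls (BnaC08g03190D). It rose in heat by 2.13 ± 0.06 (limma adjusted p = 1.02e-10). CBF5, the pseudouridine synthase of ribosomal RNA, rose in 2 copies, by 1.95 (BnaA07g17200D) and by 1.49 (BnaCnng07570D). The summed level of these 81 genes was 429 ± 2.34 FPKM in drought, 1181 ± 5.15 FPKM in heat and 489 ± 12.4 FPKM in controls.

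Translation factors other than LOS1 had 62 tested genes, of which 13 rose and none fell in heat, with a median of 0.30, and none was called in drought. The list also held translationally controlled tumor protein (BnaC03g39720D), and whether it acts as a translation factor was not tested. This gene averaged 544 FPKM in drought, 1390 FPKM in heat and 396 FPKM in controls. Of 21 tested genes of the growth-control kinases, 6 fell and none rose in heat, against 11.2% lower and 14.4% higher among all genes. None of the 21 was called in drought, against 12.0% of all genes. With no limit on the size of the change, 6 were higher and 8 lower in heat, and the median was -0.0087. They include the S6 kinases, which phosphorylate RPS6. S6K2 (BnaA05g29500D) had 74.5, 74.3 and 76.4 FPKM in drought, 44.8, 42.8 and 44.9 FPKM in heat, and 130, 125 and 127 FPKM in controls. S6K1 copies BnaC05g43840D and BnaC01g39340D fell in heat by 1.55 and 1.01. In the same leaves the RPS6 locus AT5G10360 summed to 295 FPKM in drought, 486 FPKM in heat and 324 FPKM in controls.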

How the data were processed

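RNA of 9 Brassica napus leaf libraries was analysed from the authors' deposited table of all genes, whose values were read as FPKM. Reads were aligned with HISAT2, per the submitters' processing notes. No source used here names the counter, the annotation or the genome build. The table's library names fit samples of both species, and the choice of the Brassica napus samples rests on the table's 29005 name and its Brassica gene models. In 99.4% of values or more per library the FPKM, times gene length, came out as whole reads within 0.01, which fixed the depth. The deposited annotation also gives each gene's identity to its Arabidopsis match in percent.

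Genes at 1 FPKM in at least 3 libraries were fitted as log2(FPKM + 1) over the 3 groups with limma 3.58.1 in R 4.3.3 (trend and robust moderation), with Benjamini-Hochberg adjustment over 44260 genes; the script was tested on simulated data. FPKM is scaled to each library's total, so a few very abundant transcripts can move all other values. The members and the lists were chosen with earlier results of these data known. Named are all called members (at most 8 per direction where over 16 were called), the 8 highest members, the 3 highest organelle members, the 6 loci changing most and up to 3 genes of each other list, except a few that are not reported here; copies paired with these, and all stretches by gene number, were picked after their values were seen. Alternatives were other scalings, pseudocounts and filters, voom on recovered reads, a replicate block, leaving out each library, no fold limit and copies summed per locus. Replicate numbers were not taken to pair libraries, and the labels do not say whether they do.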

Additional observations from a re-analysis of the deposited data

How the results depend on the processing

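Replicate numbers were shared between groups, but same-numbered libraries deviated together with r between -0.0184 and 0.0255; with the replicate block 8, 47 and 79 members were called in drought, in heat and in heat against drought, against 7, 47 and 79 without it. Leaving out 1 library gave 6 to 10, 45 to 52 and 74 to 91 members called, 15 to 22, 119 to 124 and 173 to 194 large-subunit genes, 3 to 5, 45 to 48 and 52 to 55 assembly genes, and members' medians of -0.24 to -0.16, 0.38 to 0.41 and 0.56 to 0.66.

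In drought the 7 called members became 4 with TMM factors, 16 with a pseudocount of 0.1, 16 with voom on reads, 126 with no fold limit and 1 of 67 loci. The 19 large-subunit genes became 31, 31, 231 and 1 (pseudocount, voom, no fold limit, loci), the 4 assembly genes 2 with quantile normalization, 33 with no fold limit and 0 as loci, and the median -0.091 with TMM factors. In heat, no fold limit gave 226 members, 377 large-subunit and 70 assembly genes, and sums per locus gave 10, 23 and 14. The heat median was 0.20 with TMM factors, 0.42 with pseudocount 0.1 or voom, 0.33 with no filter and 0.46 as loci. The 0.33 was not taken over the 326 members alone, whose heat median with no filter stayed at 0.38. Heat against drought gave 45 members with TMM factors and 262 with no fold limit (426 large-subunit genes). As loci it gave 11, 39 and 16 for members, large-subunit and assembly genes. Its median was 0.34 with TMM factors and 0.50 with no filter. The 0.50 was again not over the 326 members alone, whose median with no filter stayed at 0.60.

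Of 26 sign changes of named genes, 12 came where a locus sum replaced the copy. In heat this gave BnaA02g36040D 0.43, BnaA03g10670D 0.51, BnaA03g14550D 0.14, BnaA03g16530D 0.37, BnaA04g19830D -0.13, BnaAnng31720D 0.18, BnaC02g05940D 0.40, BnaC03g15950D -0.090 and BnaC04g42280D 0.67; in drought BnaA03g02870D -0.14, BnaA03g05300D 0.082 and BnaC02g21820D -0.31. TMM factors gave BnaA03g05300D 0.0033, BnaA03g07060D 0.079, BnaA05g34140D 0.085 and BnaC03g76150D 0.0084 in drought, and BnaA04g19830D -0.15 in heat. BnaA03g02870D was at -0.11 in drought with quantile normalization and at -0.0070 and -0.012 without the third drought or control library, the lowest and highest without any library being -0.012 and 0.044. BnaA03g07060D was at 0.042 and 0.012 without the second drought or control library (from -0.071 without the third drought library), and BnaA05g34140D at 0.0024, 0.0076, 0.0091 and 0.0018 without drought 1, drought 2, control 2 or control 3 (from -0.041 without control 1). The cause of these changes was not tested, apart from the locus sums.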
